A study of Homo sapiens with 30 samples.

Results

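The genes described are 39 interferon-stimulated genes, chosen by symbol from a list of well-known targets of interferon signalling, out of 58735 genes measured by RNA sequencing. All 39 were found in the table of counts, and 36 of them had enough counts to be tested. The cells were LNCaP, a human prostate cancer line that responds to androgen. Every library came from cells with an shRNA against mTOR, the kinase at the core of the mTORC1 and mTORC2 complexes, so no library shows LNCaP cells without the shRNA. An inducible construct then supplied the wild-type protein (WT), a form carrying an export signal that keeps it out of the nucleus (NES), a form carrying a nuclear localization signal (NLS), the NLS form with the kinase-dead change D2357E (NLSKD), or nothing (empty vector, EV). These 5 kinds of cells are called lines here, and whether each was 1 clone is not stated. All cells spent 48 h in RPMI medium with 2% charcoal-stripped serum. They then received 10 nM R1881, a synthetic androgen, or its ethanol vehicle (0.1%) for 24 h. The 10 groups had 3 libraries each, 30 in all.

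Type I and type III interferons bind their receptors on the cell surface and activate the kinases JAK1 and TYK2. These phosphorylate STAT2, which acts with IRF9 in a complex that binds interferon-stimulated response elements in promoters. The genes switched on in this way encode sensors of viral RNA, inhibitors of translation, enzymes that trigger RNA decay, proteins that block membrane fusion and the ubiquitin-like modifier ISG15 with its conjugating enzymes. Many cancer cell lines transcribe part of this programme without added interferon, and the labels mention no interferon treatment here.

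The genes were chosen as known targets of interferon signalling, which acts through this response element. A high share of promoters with the element is therefore largely built into the choice and is given as a description only. RefSeq windows on GRCh38.p14, of 300 bases from 250 before to 50 after the start of transcription, were matched to 31 members. The response element was searched on both strands as GAAANNGAAA or TTTCNNTTTC, where N is any base, and overlapping matches were counted. At least 1 match was found in 21 of the 31 members (67.7%), against 4.38% of the 27305 genes with a window and 3.57% of the 35116 windows. A window with at least 2 matches was found for 13 members. No match lay in the windows of CMPK2, DDX58, HERC6, IFI35, IRF1, IRF9, OAS1, STAT2, UBE2L6 or XAF1, which says only that these letters are not in those windows. IRF7, DHX58, IFIT2, OAS2, OASL, IFITM2, USP18 and PARP10 were not matched to a window here. The 5 windows below belong to IFIT1, IFIT5, HERC5 and IFITM3, whose levels differed between groups in a test below, and to IFITM1, for which no test is given. Matches are in capitals, so that the element can be seen in genes that moved in opposite directions. They are IFIT1 at chr10:89392373-89392672 (+), IFIT5 at chr10:89414318-89414617 (+), HERC5 at chr4:88456869-88457168 (+), IFITM1 at chr11:313790-314089 (+) and IFITM3 at chr11:320811-321110 (-), each written on its own coding strand.
IFIT1: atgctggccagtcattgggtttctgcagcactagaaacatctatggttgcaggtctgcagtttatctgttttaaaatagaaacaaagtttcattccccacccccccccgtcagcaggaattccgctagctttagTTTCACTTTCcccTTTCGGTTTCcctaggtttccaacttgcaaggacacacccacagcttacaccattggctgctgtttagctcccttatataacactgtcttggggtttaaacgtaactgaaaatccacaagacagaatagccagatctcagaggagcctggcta
IFIT5: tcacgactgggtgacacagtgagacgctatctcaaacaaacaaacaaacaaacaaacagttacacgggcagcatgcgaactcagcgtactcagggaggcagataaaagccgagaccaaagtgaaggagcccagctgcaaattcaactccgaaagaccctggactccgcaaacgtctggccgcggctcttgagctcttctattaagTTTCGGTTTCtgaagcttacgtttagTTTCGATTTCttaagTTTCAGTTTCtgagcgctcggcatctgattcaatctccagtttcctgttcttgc
HERC5: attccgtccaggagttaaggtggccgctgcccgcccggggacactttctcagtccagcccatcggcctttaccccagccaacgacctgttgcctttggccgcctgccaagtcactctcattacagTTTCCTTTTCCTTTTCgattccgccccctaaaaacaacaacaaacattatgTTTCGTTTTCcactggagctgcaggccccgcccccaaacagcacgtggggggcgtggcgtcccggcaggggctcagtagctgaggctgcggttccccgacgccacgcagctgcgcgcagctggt
IFITM1: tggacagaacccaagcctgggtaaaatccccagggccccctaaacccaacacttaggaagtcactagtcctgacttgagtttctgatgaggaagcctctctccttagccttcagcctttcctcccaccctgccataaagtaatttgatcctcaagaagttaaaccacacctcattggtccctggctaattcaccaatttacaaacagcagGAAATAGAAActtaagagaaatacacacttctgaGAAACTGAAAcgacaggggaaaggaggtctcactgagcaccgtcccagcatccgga
IFITM3: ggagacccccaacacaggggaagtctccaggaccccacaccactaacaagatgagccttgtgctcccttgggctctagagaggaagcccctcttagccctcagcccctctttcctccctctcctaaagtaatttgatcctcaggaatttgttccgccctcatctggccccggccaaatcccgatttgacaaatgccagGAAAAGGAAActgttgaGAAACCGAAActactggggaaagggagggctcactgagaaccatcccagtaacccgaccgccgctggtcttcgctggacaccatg
IFIT5 and HERC5 held 3 matches each, and IFIT1, IFITM1 and IFITM3 held 2 each. A match is a description of the sequence and not a bound site.

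Between genes, levels are compared as FPKM, which scale fragments by gene length and library size, as the authors deposited them. Most of the interferon-stimulated genes were weakly transcribed. The median over the 36 tested members of the mean FPKM was 0.946, against 3.08 over all 18296 tested genes, and 18 members had a mean under 1 FPKM. In CPM, counts scaled to a common library total, 31 members reached a group mean of 1 and 16 reached 10. The test covered 92.3% of the members and 31.2% of all genes. The 3 members left out were IFI44L with 86 counts over all libraries, OAS2 with 27, and XAF1 with none. XAF1, an antagonist of the apoptosis inhibitor XIAP, had 0 counts in all 30 libraries, which allows a level of up to 0.00385 CPM as far as counting error goes.

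**Figure D1:**
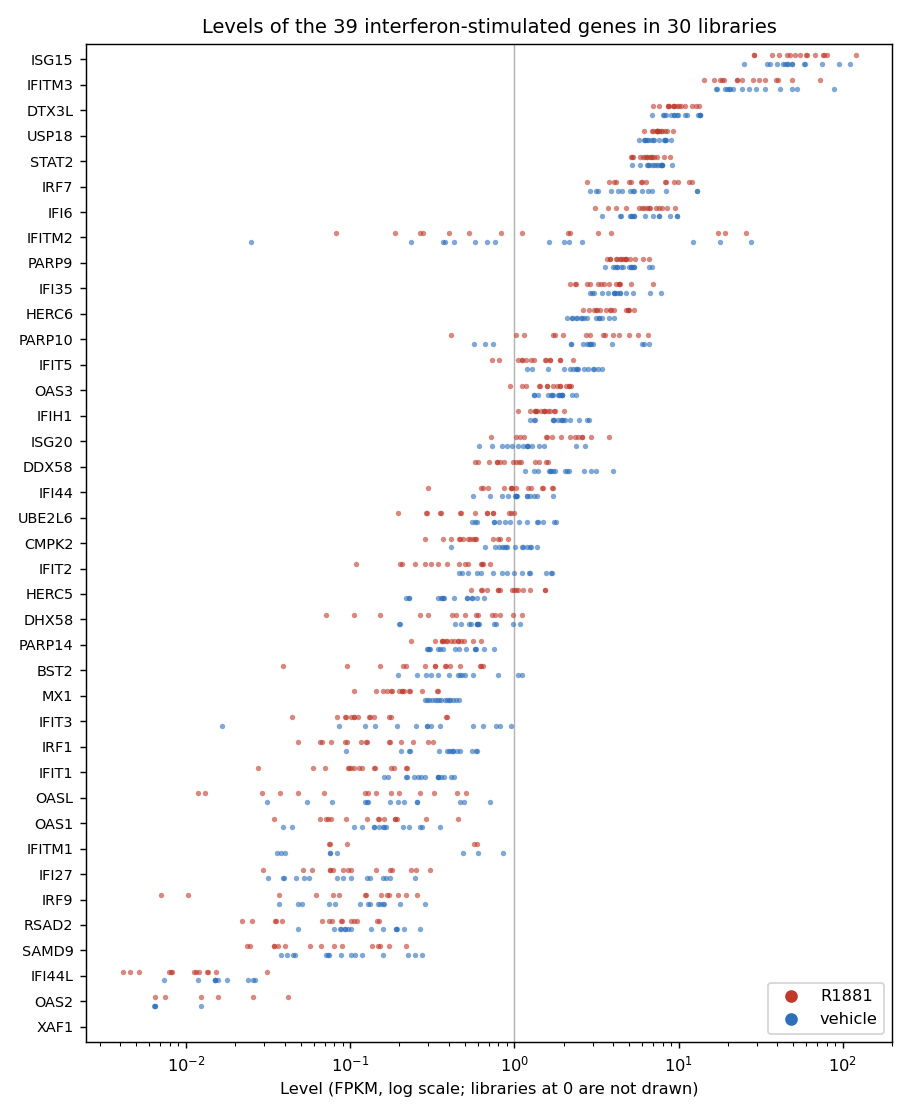
Level of each of the 39 interferon-stimulated genes in FPKM on a log scale, with 1 point per library, R1881 in red above vehicle in blue, and genes ordered by mean level. ISG15 and IFITM3 lie highest, the next 5 genes average between 6.31 and 10.1 FPKM, and IFITM2 and PARP10 spread over the widest ranges among the genes with a mean above 1 FPKM.

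ISG15, the ubiquitin-like modifier itself, was the most abundant member at 56.2 FPKM over all libraries, with group means between 41.2 and 72.8 FPKM. IFITM3, which blocks fusion of viruses with endosomal membranes, followed at 31.0 FPKM, and DTX3L, a ubiquitin ligase that works with PARP9, at 10.1 FPKM. USP18, which removes ISG15 from proteins and restrains the interferon receptor, averaged 7.39 FPKM. Among the transcription factors, STAT2 had group means between 5.94 and 8.31 FPKM, whereas those of IRF1 ran between 0.09 and 0.542 FPKM and those of IRF9 between 0.066 and 0.168 FPKM. The effector genes IFIT2, MX1, IFIT1 and OAS1 ranked 21, 26, 29 and 31 of the 39 by mean FPKM. Group means were between 0.085 and 0.393 FPKM for IFIT1, between 0.188 and 1.64 FPKM for IFIT2, between 0.168 and 0.38 FPKM for MX1 and between 0.0999 and 0.223 FPKM for OAS1. IFITM1 had 99 counts in all, spread over 14 of the 30 libraries.

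The upstream genes were taken from a list of 40 ligands, receptors, kinases, inhibitors and sensors, all found and 26 of them tested. No count fell on IFNB1, IFNA1, IFNA2, IFNE, IFNK, IFNG, IFNL2 or IFNL3, and IFNL1 had 5 counts over all libraries. The receptor chain IFNAR1 had group means between 11.8 and 20.6 FPKM and IFNAR2 between 0.231 and 0.406 FPKM. For the kinases, group means lay between 0.9 and 1.33 FPKM for JAK1 and between 6.6 and 9.69 FPKM for TYK2. None of these 4 was called in any of the comparisons made below.

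Library totals ran between 21435364 and 61762468 counts. Counts of mitochondrially encoded genes took 3.90% to 11.7% of a library and exceeded 9% in 5 libraries, which were replicate 2 of NES and NLS under R1881, replicate 2 of NLS and NLSKD under vehicle and replicate 3 of EV under vehicle. MTOR, the gene targeted and resupplied, had 1600 ± 183 CPM in WT, 4300 ± 1400 CPM in NES, 1040 ± 362 CPM in NLS, 1080 ± 365 CPM in NLSKD and 66.1 ± 9.54 CPM in EV cells under R1881 (SD, n = 3 each), with the same order of EV below the rest under vehicle. In EV cells MTOR was higher under R1881 than under vehicle, by 1.36 ± 0.33 on the log2 scale (SE). By the test described below it was called there and in no other line. On that scale WT, NES, NLS and NLSKD cells exceeded EV by 4.60, 6.02, 3.97 and 4.03 under R1881. Under vehicle they did so by 6.16, 7.67, 5.18 and 5.30. Of the luminal prostate markers, KRT8 had group means between 396 and 1540 CPM, KRT18 between 248 and 899 CPM and HOXB13 between 378 and 635 CPM. The 4 leukocyte markers summed to between 0.0292 and 0.345 CPM, with CD3E at 0. The 3 fibroblast markers summed to between 9.16 and 20.3 CPM, almost all COL1A1, with DCN at 3 counts over all libraries. The 3 endothelial markers summed to between 3.11 and 23.6 CPM, almost all VWF, with CDH5 at 0.

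The first question was whether androgen changed these genes in each line. A gene is called below when edgeR's quasi-likelihood test gave a Benjamini-Hochberg adjusted p under 0.05 over all 18296 tested genes. IFIT1, IFIT2 and IFIT5, which encode proteins that bind viral RNA, were among the members that fell under R1881, and HERC5, the main ligase for ISG15 in human cells, rose. In EV cells 6 members fell and 1 rose under R1881, together 7 of 36, while 9.11% of all tested genes were called (4.55% higher and 4.55% lower). In WT cells 4 fell and 1 rose, 5 of 36, against 6.48% of all tested genes (3.47% higher and 3.01% lower). In NES cells 5 fell and none rose, against 8.25% of all tested genes (4.21% higher and 4.04% lower). In NLS cells none was called, against 4.44% of all tested genes (2.78% higher and 1.66% lower), and in NLSKD cells none, against 4.08% (2.48% higher and 1.6% lower). For those 2 lines edgeR gave 9 and 6 members with an unadjusted p under 0.05, and DESeq2 called 5 in NLS and 1 in NLSKD cells. The shares of all tested genes by these measures are not given here, so these counts describe the members only. The median log2 fold change over the 36 members was -0.08 for WT, -0.20 for NES, and for the nuclear forms -0.13 (NLS) and 0.02 (NLSKD), with -0.35 for EV cells, and over all tested genes it lay between -0.04 and 0.02.

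Groups that did not overlap were more numerous than calls. Every R1881 library lay below every vehicle library for 12 members in EV cells, against 11.8% of all tested genes, and above for 2, against 10.5%. In WT cells this held for 9 lower and 3 higher members, against 12.5% and 11.3% of all tested genes. In NES cells it held for 9 lower and 2 higher, against 12.1% and 12.6%. NLS cells had 6 lower and 2 higher, against 7.12% and 6.59%, and NLSKD cells 6 lower and 2 higher, against 8.03% and 7.71%. More members lay wholly below than wholly above in each line.

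IFIT2 (ENSG00000119922, hg38 chr10:89283694-89309276, plus strand) lies in a row with IFIT3, IFIT1 and IFIT5, with gaps of 18.6, 51.6 and 8.1 kb, and was called in 3 lines. It had 2.54, 1.88 and 2.94 CPM in the R1881 libraries of EV cells, against 7.0, 6.35 and 6.97 CPM in the vehicle libraries, and the groups did not overlap. The log2 fold change was -1.46 ± 0.31 (SE, adjusted p = 0.0018, edgeR). WT cells had 0.816, 1.34 and 1.21 CPM under R1881, against 2.62, 4.09 and 1.92 CPM under vehicle, a log2 fold change of -1.36 ± 0.32 (adjusted p = 0.00662, edgeR). NES cells had 1.04, 0.456 and 0.868 CPM under R1881, against 2.45, 1.99 and 2.15 CPM under vehicle, a change of -1.44 ± 0.32 (adjusted p = 0.00391, edgeR). All R1881 libraries of these lines were thus below all their vehicle libraries. In NLS cells the fold change was -1.01 ± 0.31 (adjusted p = 0.0598) and in NLSKD cells -0.94 ± 0.31 (adjusted p = 0.0998), neither called by edgeR. The deposited FPKM gave the same direction for IFIT2 in each comparison where it was called. They are the same counts scaled by gene length and library size, so this is no separate support.

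IFIT1, which recognises RNA that lacks the methylation of host caps, was called in EV and WT cells. In EV cells it had 0.485, 1.01 and 0.128 CPM under R1881, against 1.58, 1.89 and 2.01 CPM under vehicle, a log2 fold change of -1.75 ± 0.42 (adjusted p = 0.00654, edgeR). In WT cells it had 0.272, 0.474 and 0.463 CPM under R1881, against 1.03, 1.21 and 1.26 CPM under vehicle, a change of -1.52 ± 0.43 (adjusted p = 0.0288, edgeR). Neither pair of groups overlapped, although the 3 R1881 libraries of EV differed widely among themselves. IFIT5, another IFIT protein that binds RNA ends, had 6.54, 5.13 and 6.7 CPM under R1881 in EV cells, against 13.7, 9.73 and 13.2 CPM under vehicle (log2 fold change -1.0 ± 0.26, adjusted p = 0.0114, edgeR). In NES cells IFIT5 had 4.58, 2.99 and 3.3 CPM under R1881, against 9.84, 5.26 and 4.75 CPM under vehicle (-0.86 ± 0.26, adjusted p = 0.0364, edgeR). Its EV groups lay well apart, and its NES groups were separated by a gap of less than their own spread. IFIT3, which forms complexes with IFIT1, had log2 fold changes of -1.79 ± 0.70 in EV and -1.90 ± 0.75 in WT cells and was not called in either (adjusted p = 0.126 and 0.162, edgeR).

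IFIT1, IFIT2 and IFIT3 each overlap LIPA, a lysosomal lipase gene on the opposite strand. LIPA had 76.4 CPM on average, far more than any of them, and whether counting used the strand is not given in the sources used here. Without strand, reads of the overlapping stretches cannot be assigned to one gene or the other. LIPA was not called in any androgen comparison, and its log2 fold change in EV cells was -0.08 ± 0.37. With LIPA so much more abundant, that cannot show to which gene reads of the overlap were counted.

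DDX58, which encodes the RNA sensor RIG-I, was called in EV and NES cells. It had 4.77, 5.83 and 7.0 CPM under R1881 in EV cells, against 12.8, 11.5 and 17.6 CPM under vehicle (log2 fold change -1.25 ± 0.32, adjusted p = 0.0104, edgeR). In NES cells it had 3.5, 3.11 and 2.56 CPM under R1881, against 13.7, 6.18 and 7.1 CPM under vehicle (-1.55 ± 0.32, adjusted p = 0.00188, edgeR). The R1881 libraries lay below every vehicle library in both lines. The other RNA sensors IFIH1 and DHX58 were not called in any line. CMPK2, a mitochondrial nucleotide kinase, was called in EV cells, with 2.5, 1.23 and 2.09 CPM under R1881, against 5.15, 5.39 and 5.99 CPM under vehicle (-1.50 ± 0.30, adjusted p = 0.00129, edgeR). CMPK2 overlaps RSAD2, the gene of the antiviral enzyme viperin, on the opposite strand. RSAD2 itself was called in NES cells, where it had 0.37, 0.124 and 0.174 CPM under R1881, against 1.3, 0.927 and 0.649 CPM under vehicle (-2.0 ± 0.53, adjusted p = 0.0157, edgeR).

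HERC5 (hg38 chr4:88457117-88506163, plus strand), 14.0 kb from HERC6, went the other way. It had 5.33, 4.73 and 3.03 CPM under R1881 in EV cells, against 1.73, 1.09 and 2.09 CPM under vehicle, a log2 fold change of 1.41 ± 0.40 (adjusted p = 0.0234, edgeR). In WT cells it had 5.9, 5.04 and 4.81 CPM under R1881, against 2.66, 1.09 and 2.47 CPM under vehicle (1.34 ± 0.39, adjusted p = 0.0384, edgeR). Every R1881 library of these lines lay above every vehicle library. In NES, NLS and NLSKD cells the fold changes were 0.99 ± 0.40, 1.10 ± 0.40 and 1.17 ± 0.39 (adjusted p = 0.141, 0.151 and 0.117, edgeR). UBE2L6, which carries ISG15 to such ligases, fell in WT and NES cells. It had 0.427, 1.08 and 1.07 CPM under R1881 in WT cells, against 3.1, 1.79 and 2.08 CPM under vehicle (-1.43 ± 0.35, adjusted p = 0.0099, edgeR). In NES cells it had 0.791, 0.664 and 0.651 CPM under R1881, against 1.67, 2.38 and 1.3 CPM under vehicle (-1.33 ± 0.35, adjusted p = 0.0168, edgeR). ISG15 did not follow either enzyme, with fold changes between -0.04 and 0.33 over the 5 lines and no call.

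MX1, a GTPase that traps viral nucleocapsids, was called in WT cells, with 1.44, 0.948 and 2.07 CPM under R1881, against 3.02, 3.51 and 2.87 CPM under vehicle (log2 fold change -1.07 ± 0.31, adjusted p = 0.0308, edgeR). OAS3, which makes the oligoadenylates that activate RNase L, was called in EV cells. It had 9.13, 7.84 and 9.77 CPM under R1881 there, against 16.1, 14.3 and 15.5 CPM under vehicle (-0.78 ± 0.22, adjusted p = 0.0215, edgeR). Both pairs of groups were apart. Taking all lines, 10 members (27.8%) had a lower group mean under R1881 in each of the 5, against 20.2% of all tested genes. They were IRF1, DDX58, IFIH1, IFIT1, IFIT2, IFIT3, IFIT5, UBE2L6, MX1 and CMPK2. The 4 members (11.1%) with a higher group mean under R1881 in each line were HERC5, HERC6, ISG20 and IFI27, against 22.4% of all tested genes. IRF1, a transcription factor that acts on many of these promoters, had log2 fold changes between -1.63 and -1.09 and was called in no line (adjusted p between 0.0803 and 0.42, edgeR).

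**Figure D2:**
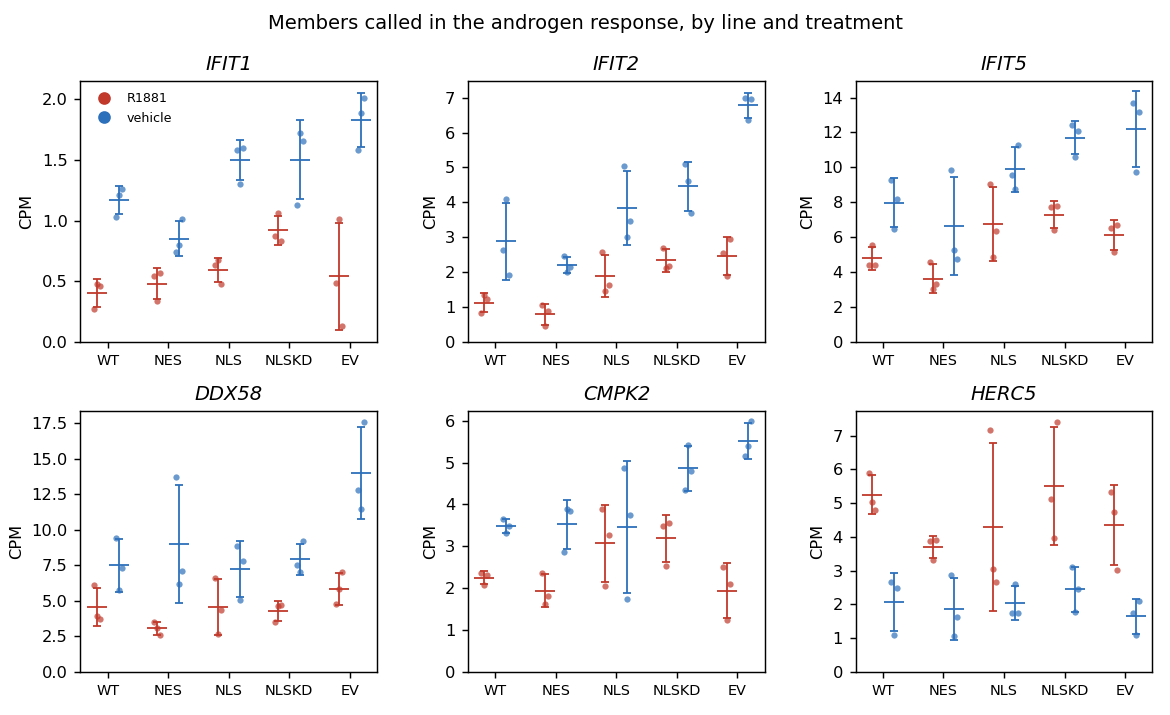
Levels in CPM of 6 members called in at least 1 androgen comparison, with 1 point per library, a line at the mean and bars of 1 SD (n = 3), R1881 in red left of vehicle in blue within each line. IFIT1, IFIT2, IFIT5, DDX58 and CMPK2 have lower means under R1881 in each line and HERC5 has higher ones, and the EV vehicle group has the highest mean of IFIT2, at 6.78 CPM.

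Among the upstream genes, TLR3, a sensor of double-stranded RNA, fell by 1.89 ± 0.44 in EV, 1.98 ± 0.42 in WT and 1.70 ± 0.43 in NES cells on the log2 scale (adjusted p = 0.00485, 0.00285 and 0.0115, edgeR). TRIM25, a ubiquitin ligase that acts with RIG-I, fell by 0.86 ± 0.19 in EV and 0.72 ± 0.19 in NES cells (adjusted p = 0.00317 and 0.0152, edgeR). No gene of the upstream list was called higher in any line, and none was called in either direction in NLS or NLSKD cells. FKBP5, an androgen-induced gene, rose in EV cells by 4.96 ± 0.27 and KLK3 by 1.93 ± 0.32 on the log2 scale (adjusted p = 1.38e-12 and 0.000129, edgeR). The summed fibroblast markers were at 11.7 CPM under R1881 in EV cells, against 20.3 CPM under vehicle, and the summed endothelial markers at 3.11 CPM, against 11.6 CPM. Both sums were lower under R1881 in every line. VWF had log2 fold changes of -1.88 ± 0.20 in EV, -1.31 ± 0.19 in WT and -2.05 ± 0.20 in NES cells (adjusted p = 2.12e-07, 3.34e-05 and 4.19e-08, edgeR) and was not called in NLS or NLSKD cells. CDH5 was at 0, PECAM1 had 11 counts and DCN 3 counts over all libraries, and the part of other cells in the changes above was not tested. In bulk RNA, fewer cells with a transcript and less of it per cell cannot be told apart.

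The 7 calls in EV cells were 4 without replicate 1 of EV vehicle, 4 without replicate 1 of EV R1881 and 4 without replicate 2 of EV R1881. CMPK2 and IFIT2 were called in every fit run. IFIT1 was called whichever library was left out but not with no filter on low counts or in a fit of only the 2 groups compared. DDX58 was lost without EV vehicle replicate 3 or EV R1881 replicate 1, IFIT5 without EV vehicle replicate 1 or EV R1881 replicate 2, and OAS3 and HERC5 without 4 of the 6 libraries each, OAS3 also with no filter.

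In WT cells the count of 5 was 2, 1 and 2 without vehicle replicates 1, 2 and 3, and 0, 2 and 3 without R1881 replicates 1, 2 and 3. HERC5 in WT cells was lost whichever of the 6 libraries was left out, MX1 and IFIT1 without 5 of them, IFIT2 without WT vehicle replicate 2 or WT R1881 replicate 1, and UBE2L6 without replicate 1 of either group. A fit of only the 2 WT groups ended the calls of all of these but HERC5, no filter on low counts ended the calls of MX1, UBE2L6 and IFIT1, and leaving out the libraries over 9% mitochondrial ended those of MX1 and IFIT1. In NES cells the count was 2 without R1881 replicate 2 and 2 without R1881 replicate 3. DDX58 was called in every fit run and IFIT2 in all but the fit of only the 2 groups compared. IFIT5, UBE2L6 and RSAD2 in NES cells were each lost without 3 of the 6 libraries, with no filter, with only the 2 groups compared and without the libraries over 9% mitochondrial. With the replicate number as a block, 8 members were called in NES, 5 in NLS and 2 in NLSKD cells. Leaving out NLS vehicle replicate 3, NLS R1881 replicate 1 or NLS R1881 replicate 2 gave 1 call in NLS cells.

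Differences between the lines in the androgen response were tested as interactions, the response in a rescue line minus that in EV cells. None of the 36 members was called for WT, NES, NLS or NLSKD, while 0.0437%, 0%, 0.0164% and 0.0164% of all tested genes were. edgeR gave 2 members with an unadjusted p under 0.05 in each of the 4, and DESeq2 called none. The calls in EV, WT and NES cells and their absence in NLS and NLSKD cells are thus not shown to differ. For IFIT2 the differences were 0.10 ± 0.45, 0.02 ± 0.53, 0.45 ± 0.43 and 0.52 ± 0.43 on the log2 scale in that order (adjusted p = 1 in each, edgeR). OAS3 differed by 0.92 ± 0.31, 0.69 ± 0.31, 0.89 ± 0.31 and 0.87 ± 0.31 in the same order (adjusted p = 0.805, 1, 0.839 and 0.994, edgeR). CMPK2 differed by 1.34 ± 0.42 in NLS cells (adjusted p = 0.652, edgeR).

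The next question was how these genes differed between each rescue line and the empty vector. Each construct came as 1 line, so the construct and other differences between lines cannot be told apart. The 4 comparisons under each treatment share the EV libraries. A small set of members was lower in the rescue lines, led by IFITM2, a close relative of IFITM3, and most members were not called. The counts include IFITM1 in WT and NLSKD cells under vehicle and in NLSKD cells under R1881. It passed the filter on low counts only through the EV libraries and had to differ from EV, so its part in these counts is no result. Under vehicle, 6 members were lower and none higher in WT cells, against 6.71% of all tested genes called (2.3% higher and 4.41% lower). In NES cells 6 were lower and none higher, against 4.94% of all tested genes (1.87% higher and 3.07% lower). NLS cells had 2 lower and 1 higher, against 4.57% (1.59% higher and 2.98% lower), and NLSKD cells had 3 lower and none higher, against 4.01% (1.47% higher and 2.54% lower). Under R1881, WT cells had 5 lower and 1 higher, against 8.49% (3.66% higher and 4.83% lower), and NES cells had 5 lower and 1 higher, against 6.96% (3.27% higher and 3.69% lower). NLS cells then had 1 lower and 1 higher, against 6.23% (2.79% higher and 3.44% lower), and NLSKD cells 2 lower and none higher, against 5.75% (2.8% higher and 2.95% lower). Over the 36 members the median log2 fold change under vehicle was -0.59 in WT cells, -0.42 in NES cells, -0.27 in NLS cells and -0.48 in NLSKD cells, where all tested genes had medians between -0.02 and 0.00. Under R1881 the medians were -0.36, -0.40, -0.26 and -0.05 in the same order, with all tested genes between 0.02 and 0.04.

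Counted without a test, 18 members in WT cells under vehicle had every library below every EV library and 1 had every library above, against 12.5% and 10.9% of all tested genes. In NES cells under vehicle 12 lay below and none above, against 8.88% and 6.74%. NLS cells under vehicle had 12 below and 2 above, against 9.83% and 8.27%, and NLSKD cells 13 below and 1 above, against 9.9% and 7.82%. Under R1881 there were 9 below and 2 above in WT cells, against 13.2% in each direction, and 11 below and 2 above in NES cells, against 12.7% and 15%. NLS cells under R1881 had 4 below and 1 above, against 9.14% and 8.54%, and NLSKD cells 6 below and 2 above, against 10.6% and 10.3%. Because the same 3 EV libraries enter the 4 comparisons of a treatment, these counts are not independent of each other.

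VWF, a marker of endothelial cells, differed in most of the same comparisons. The summed endothelial markers under vehicle were at 23.6 CPM in WT cells, 21.4 CPM in NES cells, 14.6 CPM in NLS cells and 11.2 CPM in NLSKD cells, against 11.6 CPM in EV cells. Under R1881 the sum was 9.48 CPM in WT cells, 5.18 CPM in NES cells, 10.1 CPM in NLS cells and 7.5 CPM in NLSKD cells, against 3.11 CPM in EV cells. Nearly all of it was VWF, which was called higher over EV in WT and NES cells under both treatments and in NLS and NLSKD cells under R1881, with log2 fold changes between 0.73 and 1.71 (adjusted p between 3.19e-06 and 0.0251, edgeR). The summed fibroblast markers lay between 15.2 and 19.2 CPM in the rescue lines under vehicle, against 20.3 CPM in EV cells, and between 9.16 and 14.6 CPM under R1881, against 11.7 CPM. With CDH5 at 0 and PECAM1 and DCN near 0 in all groups, the part of such cells in the differences below was not tested.

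IFITM2 (ENSG00000185201, hg38 chr11:307631-315272, plus strand) encodes a membrane protein that restricts virus entry, and was called lower in all 8 comparisons. Under vehicle it had 0.369, 0.039 and 0.589 CPM in WT cells, 0.669, 0.574 and 0.893 CPM in NES cells, 1.06, 3.96 and 1.19 CPM in NLS cells and 3.11, 2.51 and 3.33 CPM in NLSKD cells, against 19.0, 42.9 and 27.9 CPM in EV cells. Under R1881 it had 0.427, 0.302 and 0.641 CPM in WT cells, 0.421, 0.83 and 0.13 CPM in NES cells, 1.68, 3.45 and 1.31 CPM in NLS cells and 3.31, 6.14 and 5.09 CPM in NLSKD cells, against 26.6, 39.8 and 30 CPM in EV cells. No rescue library reached the lowest EV library. The log2 fold changes over EV under vehicle were -6.47 ± 0.62 in WT cells, -5.38 ± 0.58 in NES cells, -3.86 ± 0.52 in NLS cells and -3.32 ± 0.51 in NLSKD cells (adjusted p between 4.86e-08 and 0.00011, edgeR). Under R1881 they were -6.10 ± 0.60, -6.12 ± 0.60, -3.92 ± 0.52 and -2.73 ± 0.49 in the same order (adjusted p between 7.99e-08 and 0.000707, edgeR). These 8 calls held without any single library. In both treatments the mean level was lowest in WT and NES, next in NLS, then in NLSKD and highest in EV cells. WT and NES libraries overlapped in both treatments, and so did those of NLS and NLSKD.

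IFITM3 (hg38 chr11:319669-327537, minus strand) moved less. Under vehicle it had 26.7, 28.0 and 27.9 CPM in WT cells, 23.0, 45.6 and 36.1 CPM in NES cells and 26.0, 39.9 and 29.3 CPM in NLSKD cells, against 66.0, 119 and 72.1 CPM in EV cells. All of these rescue libraries were below the EV libraries, with log2 fold changes of -1.64 ± 0.36, -1.29 ± 0.36 and -1.43 ± 0.36 (adjusted p = 0.0041, 0.0313 and 0.0189, edgeR). In NLS cells it had 23.2, 55.6 and 33.2 CPM and the change was -1.20 ± 0.36 (adjusted p = 0.0522, edgeR). Under R1881 it was called in WT cells, which had 19.0, 31.9 and 31.9 CPM, against 53.8, 98.3 and 66.9 CPM in EV cells (-1.40 ± 0.36, adjusted p = 0.012, edgeR). In the other 3 lines the changes under R1881 lay between -1.16 and -1.01 and missed the threshold (adjusted p between 0.0524 and 0.0991, edgeR).

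IFITM1, whose gene overlaps IFITM2 on the same strand, had 0 counts in NLSKD cells under vehicle and 1 in WT cells, against 53 in EV cells over 3 libraries each. Its level in NLSKD cells was at least 17.3-fold lower than in EV, taking 3 counts over the group as the floor. For WT the ratio of EV to WT was 55.1, with an exact 95% counting interval of 9.47 to 2220. Under R1881, NLSKD cells had 0 counts against 29 in EV cells, at least 9.28-fold lower, and 1 of the 3 EV libraries also had 0. With 99 counts in all, 82 of them in EV cells, IFITM1 passed the filter on low counts only through the EV libraries. It had therefore to differ from EV, and although it is among the members called in these 3 comparisons, no test is given for it. The IFITM genes are close copies of each other beside one another on chromosome 11, and how reads that match several of them were counted is not given in the sources used here, so their separate levels are uncertain. BST2, the tetherin that holds budding viruses on the cell, was not called in any comparison.

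OASL, a relative of the OAS enzymes that binds RIG-I, was lower in WT and NES cells. Under vehicle it had 0.0, 0.195 and 0.275 CPM in WT cells and 0.111, 0.442 and 0.446 CPM in NES cells, against 1.65, 2.49 and 1.76 CPM in EV cells. The log2 fold changes were -3.63 ± 0.77 in WT and -2.56 ± 0.72 in NES cells (adjusted p = 0.00292 and 0.0336, edgeR). Under R1881 it had 0.427, 0.0431 and 0.107 CPM in WT cells and 0.135, 0.249 and 0.174 CPM in NES cells, against 1.13, 1.8 and 1.58 CPM in EV cells (-2.92 ± 0.75 and -3.03 ± 0.75, adjusted p = 0.0124 and 0.0115, edgeR). No library of these lines reached an EV library. In NLS and NLSKD cells the changes lay between -1.70 and -1.24 over both treatments and were not called.

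PARP10, a mono-ADP-ribosyltransferase, was called lower in WT cells. It had 4.06, 4.48 and 3.49 CPM in WT cells under vehicle, against 16.7, 36.4 and 18.6 CPM in EV cells (log2 fold change -2.57 ± 0.44, adjusted p = 0.000238, edgeR). Under R1881 it had 2.45, 7.2 and 6.38 CPM in WT cells, against 16.4, 26.3 and 21.6 CPM in EV cells (-2.0 ± 0.43, adjusted p = 0.00256, edgeR). Both pairs of groups lay apart, and both calls held without any single library. In NES, NLS and NLSKD cells the log2 fold changes lay between -0.62 and 0.63 over both treatments and were not called. PARP10 overlaps GRINA on the opposite strand, which had 463 CPM on average and was not called in WT against EV cells (-0.19 ± 0.22 under vehicle and -0.15 ± 0.22 under R1881). As for LIPA, that cannot show to which gene reads of the overlap were counted.

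**Figure D3:**
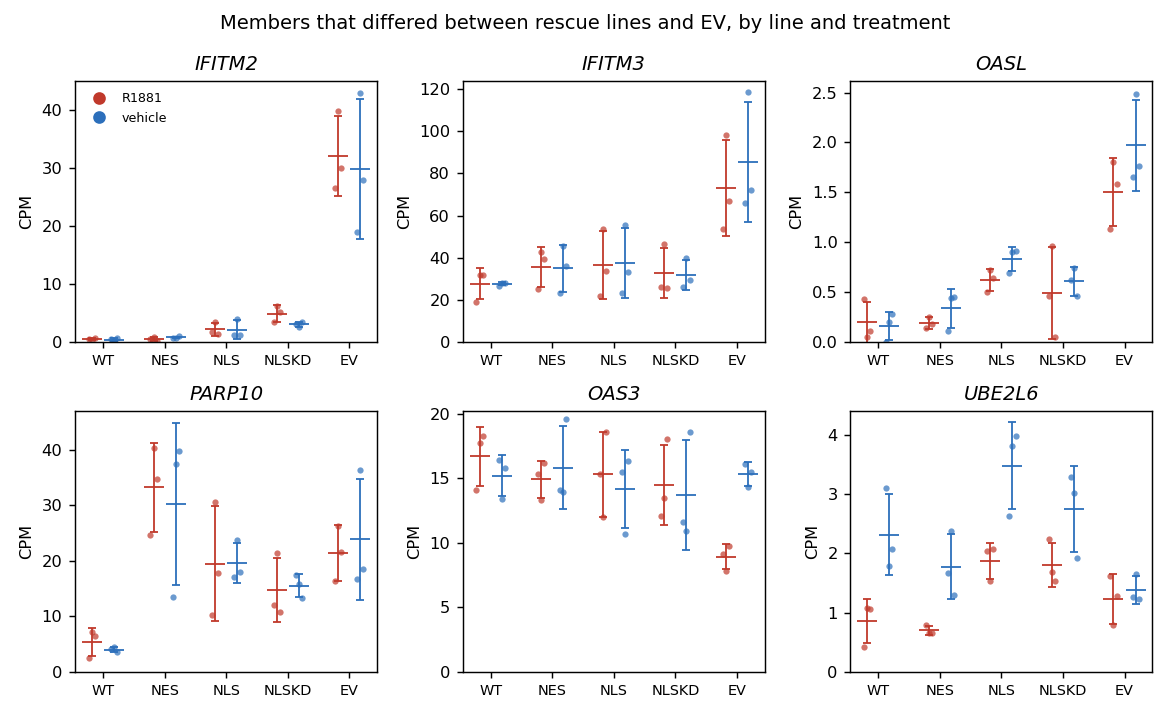
Levels in CPM of 6 members called between lines, with 1 point per library, a line at the mean and bars of 1 SD (n = 3), R1881 in red left of vehicle in blue within each line. IFITM2, IFITM3 and OASL are highest in EV, PARP10 is lowest in WT, OAS3 is lowest in EV under R1881 and UBE2L6 is highest in NLS under vehicle.

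IFIT2 was lower in WT and NES cells than in EV cells under both treatments. Against the EV values given above, the log2 fold changes under vehicle were -1.23 ± 0.30 in WT and -1.62 ± 0.31 in NES cells (adjusted p = 0.0101 and 0.00116, edgeR). Under R1881 they were -1.13 ± 0.32 in WT and -1.60 ± 0.32 in NES cells (adjusted p = 0.0245 and 0.00204, edgeR). No library of these lines reached an EV library of the same treatment. In NLS and NLSKD cells the IFIT2 values were -0.82 ± 0.30 and -0.60 ± 0.30 under vehicle and -0.37 ± 0.31 and -0.08 ± 0.31 under R1881, with no call. IFIT5 and IFIT3 were also called in NES cells under vehicle. IFIT5 had 9.84, 5.26 and 4.75 CPM there, against 13.7, 9.73 and 13.2 CPM in EV cells (-0.88 ± 0.25, adjusted p = 0.0407, edgeR), and the groups overlapped. IFIT3 had 0.669, 0.0442 and 0.325 CPM in NES cells, against 2.04, 2.17 and 1.72 CPM in EV cells (-2.48 ± 0.73, adjusted p = 0.0467, edgeR), with no overlap.

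OAS3 and UBE2L6 were called higher in rescue lines than in EV cells. OAS3 under R1881 had 14.1, 17.7 and 18.3 CPM in WT cells, 15.3, 13.3 and 16.2 CPM in NES cells and 15.3, 12 and 18.6 CPM in NLS cells, against 9.13, 7.84 and 9.77 CPM in EV cells. The log2 fold changes were 0.91 ± 0.22, 0.74 ± 0.22 and 0.78 ± 0.22 (adjusted p = 0.00766, 0.0368 and 0.0296, edgeR). In NLSKD cells the value was 0.70 ± 0.22 (adjusted p = 0.0574, edgeR). Under vehicle the OAS3 values lay between -0.16 and 0.05 in the 4 lines, so that EV cells under R1881 were the low group. UBE2L6 under vehicle had 2.64, 3.82 and 3.99 CPM in NLS cells, against 1.27, 1.65 and 1.23 CPM in EV cells (1.33 ± 0.34, adjusted p = 0.0199, edgeR). HERC6, a relative of HERC5, had 13, 12.1 and 13.9 CPM in NLS cells under vehicle, against 21.9, 18.3 and 24.0 CPM in EV cells (-0.71 ± 0.21, adjusted p = 0.0461, edgeR). In NES cells under R1881, PARP9 had 40.6, 34.6 and 33.6 CPM, against 59.0, 48.8 and 54.8 CPM in EV cells (-0.58 ± 0.16, adjusted p = 0.0204, edgeR). IFI44 there had 1.45, 0.622 and 1.3 CPM, against 2.99, 3.07 and 1.96 CPM in EV cells (-1.23 ± 0.37, adjusted p = 0.042, edgeR).

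Upstream of these genes, TMEM173, which encodes the DNA-sensing adaptor STING, was lower in WT cells by 2.85 ± 0.78 under vehicle and by 4.86 ± 0.99 under R1881 on the log2 scale, and in NLS cells by 2.92 ± 0.82 under R1881 (adjusted p = 0.022, 0.00173 and 0.0289, edgeR). Its level was 0.193 ± 0.0433 CPM in WT cells under vehicle, against 1.42 ± 0.332 CPM in EV cells (SD, n = 3 each). IFNGR2, a chain of the interferon gamma receptor, fell by 0.44 ± 0.14 in NES and 0.45 ± 0.14 in NLS cells under R1881 (adjusted p = 0.0454 and 0.0475, edgeR). No other gene of that list was called against EV in either direction.

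Several calls against EV hung on single libraries or settings. IFITM1 is listed here and below only because it enters the counts, and fits in which its call held are no support for it. In WT cells under vehicle IFITM2, IFITM3, PARP10 and OASL were called in every fit run, IFIT2 was lost without WT replicate 1 or 3, and IFITM1 without 4 of the 6 libraries. In WT cells under R1881 IFITM2 and PARP10 were called in every fit run. IFITM3 was lost there without EV replicate 2 or WT replicate 1, OAS3 without EV replicate 2, and OASL without WT replicate 2 or 3. IFIT2 was lost without 4 of the 6 libraries, with no filter on low counts and with only the 2 groups compared.

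In NES cells under vehicle the 6 calls were 3 without EV replicate 1, 2 or 3, 3 without NES replicate 2 and 2 without NES replicate 3, and IFITM2 and IFIT2 were called in every fit run. OASL was lost whichever of the 6 libraries was left out, IFIT3 without 5, IFIT5 without 4 and IFITM3 without 3, and these 4 calls were also lost with only the 2 groups compared. Leaving out the libraries over 9% mitochondrial ended those of OASL, IFIT3 and IFIT5, and no filter that of IFIT5. In NES cells under R1881 the 6 calls were 3 and 2 without NES replicates 2 and 3, and IFITM2 and IFIT2 were again called in every fit run. OAS3 was lost whichever library was left out and with no filter, PARP9 and IFI44 without 4 of the 6 libraries, and OASL without NES replicate 1 or 3. Without the libraries over 9% mitochondrial OASL, PARP9 and IFI44 were lost, with no filter PARP9 and IFI44, and with only the 2 groups compared IFI44.

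For NLS cells under vehicle the 3 calls were 1 without EV replicate 1 or 3, and under R1881 the 2 calls were 1 without EV replicate 1, 2 or 3 or NLS replicate 1 or 3. HERC6 in NLS cells was lost without 5 of the 6 libraries, with DESeq2 size factors, with no filter, with only the 2 groups compared and without the libraries over 9% mitochondrial. UBE2L6 was lost without 4 of the 6 libraries and under the last 3 of those settings, and OAS3 under R1881 without 5 of the 6, with no filter and with only the 2 groups compared. In NLSKD cells under vehicle the 3 calls were 1 without NLSKD replicate 1 or 3, IFITM3 being lost without 3 of the 6 libraries and IFITM1 without 4. Under R1881 the 2 calls were 1 without EV replicate 3 or NLSKD replicate 1 or 3, IFITM1 being lost without 5 of the 6, and in both treatments IFITM1 was lost without the libraries over 9% mitochondrial. The replicate number as a block gave 7 calls in NLS cells under vehicle and 4 in NLS and 6 in NLSKD cells under R1881.

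The 2 rescue lines that differ in where mTOR is directed differed in few members. MTOR itself was lower in NLS than in NES cells. Its log2 fold change was -2.05 ± 0.34 under R1881 and -2.50 ± 0.34 under vehicle (adjusted p = 0.000884 and 0.000181, edgeR). Where mTOR is directed and how much of its RNA was present therefore cannot be told apart here. Under R1881, NLS cells had 2 members higher and none lower than NES cells, against 1.37% of all tested genes (0.929% higher and 0.437% lower). UBE2L6 had 2.05, 1.53 and 2.07 CPM in NLS cells, against 0.791, 0.664 and 0.651 CPM in NES cells (log2 fold change 1.41 ± 0.35, adjusted p = 0.0404, edgeR). IFITM2 was also higher in NLS cells, at the values given above (2.20 ± 0.56, adjusted p = 0.0467, edgeR). Both pairs of groups lay apart. Every NLS library was above every NES library for 8 members and below for none, against 5.93% and 6.77% of all tested genes. No member was called without NES replicate 1 or 3 or NLS replicate 1, and 1 was called without NES replicate 2 or NLS replicate 3. UBE2L6 was lost without 5 of the 6 libraries and IFITM2 without 4, both with only the 2 groups compared and without the libraries over 9% mitochondrial, and UBE2L6 also with no filter. VWF was higher in NLS than in NES cells under R1881 as well (log2 fold change 0.98 ± 0.20, adjusted p = 0.00626, edgeR), and the part of other cells was not tested. With the replicate number as a block 4 were called.

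Under vehicle no member was called in NLS against NES cells, against 1.03% of all tested genes (0.497% higher and 0.536% lower), with 6 at an unadjusted p under 0.05 by edgeR and none by DESeq2. Again 9 members had every NLS library above every NES library and none had the reverse, against 5.92% and 6.06% of all tested genes. The kinase-dead change made no called difference: NLSKD against NLS cells gave 0 members under R1881 and 0 under vehicle, where 0.00547% and 0.0109% of all tested genes were called. The unadjusted p was under 0.05 for 2 members under R1881 and 0 under vehicle by edgeR, and DESeq2 called none in either. Every NLSKD library was above every NLS library for 1 member and below for none under R1881, against 2.16% of all tested genes in each direction, and above for 1 and below for 5 under vehicle, against 3.14% and 3.79%. IFITM2 had a log2 fold change of 1.19 ± 0.49 in NLSKD over NLS cells under R1881 and of 0.54 ± 0.50 under vehicle, and IFIT2 of 0.29 ± 0.31 and 0.22 ± 0.30.

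**Figure D4:**
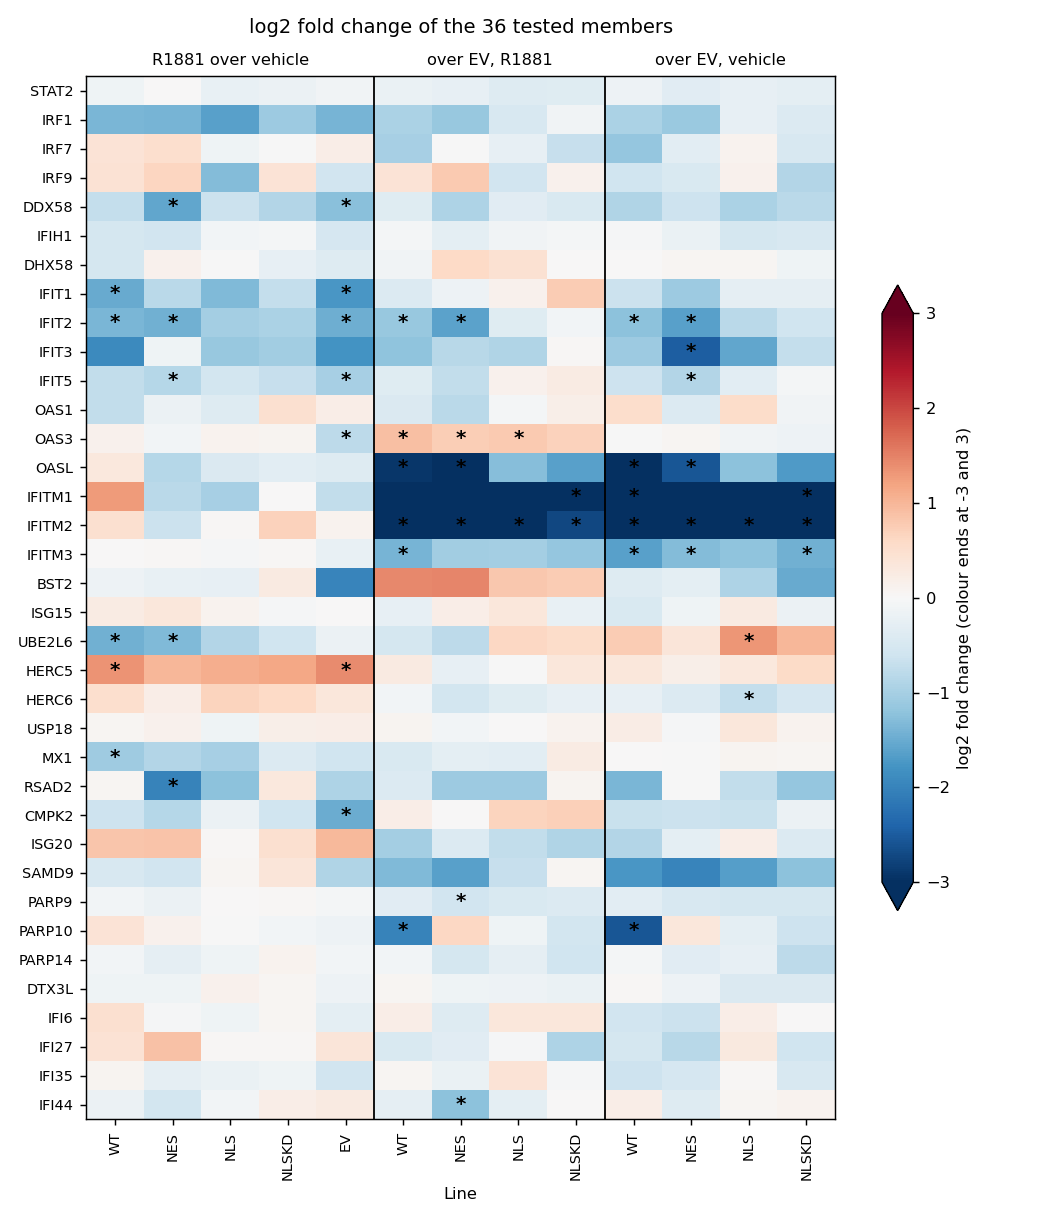
log2 fold change of the 36 tested members in 13 comparisons, R1881 over vehicle in each line and each rescue line over EV under each treatment, with blue for lower, red for higher and an asterisk at an edgeR adjusted p under 0.05. The IFIT rows are blue in the androgen block, the IFITM2 row is blue with an asterisk in all 8 columns of the EV blocks, and colours stop at -3 and 3.

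In all, 19 of the 36 tested members were called in at least 1 of the 17 comparisons of 2 groups, and 17 in none, among them ISG15, STAT2, IRF1, IRF7, IRF9, OAS1 and USP18. The share of all tested genes called at least once was not counted. The 19 is therefore a tally and not a result about these genes. The 19 called members include IFITM1, which passed the filter only through the EV libraries and for which no test is given. It accounts for 3 of the 53 calls of a member in a comparison. Of these 53 calls, 19 held whichever library was left out. Members of one family did not all go one way. Within the ISG15 pathway HERC5 was called higher and UBE2L6 lower under R1881 in WT cells, although HERC5 was lost whichever library was left out. Within the OAS family OAS3 was called higher and OASL lower in WT than in EV cells under R1881, calls that were lost without 1 and 2 of the 6 libraries. Over the 10 group means, the median correlation between pairs of the 26 members with a mean of at least 1 CPM was 0.11, and between pairs of 13969 genes of that level it was 0.00. Over the deviations of the 30 libraries from their group means it was -0.04, against 0.00. IFIT2 and IFIT5 had a correlation of 0.97 over the 10 group means and IFITM2 and IFITM3 one of 0.89, whereas UBE2L6 and HERC6 had -0.70. These describe libraries that share EV and treatment groups and are not tests.

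Replicate 2 stood apart for some members. Its library was the highest of the 3 in at least 8 of the 10 groups for IRF7, OAS1, IFITM3, ISG15, PARP10, IFI6, IFI27 and IFI35, 8 of 36 (22.2%), against 12.6% of all tested genes. For IRF7 and IFITM3 it was so in all 10 groups. Replicate 2 also had the highest share of mitochondrially encoded counts in 6 of the 10 groups, and its part in these levels was not tested. Under vehicle in EV cells, for example, IFITM3 had 119 CPM in replicate 2 and 66.0 and 72.1 CPM in the others.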

How the data were processed

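Total RNA from LNCaP cells was made into 30 libraries and read from both ends, 150 bases each. Per the file headers, the authors deposited raw read counts per gene and FPKM values per gene for each library. The submitters' processing notes name HISAT2 2.0.5, featureCounts 1.5.0-p3 and hg38, in no stated role, and the positions and strands of all 39 members were those of GENCODE 29. For strand and for reads that match more than 1 gene, the setting is not given in the sources used here. Members were found by symbol and followed by gene identifier. The members, families and pathway list were chosen with earlier results of these data known. Some genes of the pathway and marker lists are not reported here.

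Counts were tested in R 4.3.3 with edgeR 4.0.16 (TMM, filterByExpr, glmQLFit, glmQLFTest, 2-sided), with 1 mean for each of 10 groups in 1 fit of all libraries and Benjamini-Hochberg adjustment over 18296 genes within each of 21 comparisons. CPM used the TMM-scaled library total. Errors of fold changes are standard errors implied by the F statistic, and the pipeline was tested on simulated data. Alternatives were DESeq2 1.42.0, its size factors in edgeR, no filter on low counts, only the groups compared, the replicate number as a block, no libraries over 9% mitochondrial counts, each library left out and, for IFIT2, ratios of the deposited FPKM. Counts by unadjusted p or from these alternatives are given without the share of all tested genes, and describe the members only. By rule, the text names up to 6 called members and 4 called pathway genes per comparison, the levels of STAT2, IRF1, IRF9, IFIT1, IFIT2, ISG15, MX1 and OAS1, the kinases and receptor chains JAK1, TYK2, IFNAR1 and IFNAR2, and MTOR, KLK3 and FKBP5. HERC5 as the last of 7 in EV cells, and members named where they were not called, were chosen after their values were seen.

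Depth was 21435364 to 61762468 counts per library, and intervals and floors cover counting error only. Nothing says that triplicates were separate cultures, so p-values measure the spread between these libraries, which may be technical. Replicates of a group differed by at least 12.7 in chi-square per degree of freedom, so none was counted as a repeat of another. The replicate numbers come from the sample titles, and same-numbered libraries deviated together, with all 3 correlations over 0.1, in 9 of the 17 comparisons of 2 groups. All p-values, errors and named calls come from the fit without the block, also in those 9. Their block counts stand beside the result where they differ by over 1.5 times, as does that of the androgen response in NLS cells. Other block counts that differ so are given in the last section, and members called only with the block are not named.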

Additional observations from a re-analysis of the deposited data

How the results depend on the processing

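No fold change of a called member turned round in any fit, and DESeq2 size factors in edgeR left all 21 counts within 1.5 times. By DESeq2 the members called were 5 for the androgen response in NLS and 1 in NLSKD cells, 4 for NLS and 4 for NLSKD over EV and 4 for NLS over NES under R1881, and 5 for NLS over EV under vehicle. With no filter on low counts they were 2 for the androgen response in WT, 3 in NES and 1 in NLS cells, 4 for NLSKD over EV and 1 for NLS over NES under R1881, and 1 for NLS over NES under vehicle. In fits of only the groups compared they were 1 for the androgen response in WT and 1 in NES cells, 1 for NLS and 1 for NLSKD over EV and 0 for NLS over NES under R1881, and 2 for NES over EV under vehicle. Without the 5 libraries over 9% mitochondrial they were 3 for the androgen response in WT and 2 in NES cells, 3 for NES over EV and 0 for NLS over NES under R1881, and 3 for NES over EV under vehicle. The cause was not tested, though the last 2 settings use fewer libraries.

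Where same-numbered libraries deviated together, the replicate block changed the counts given beside those results by over 1.5 times. No other count of these comparisons changed by that much. The block counts were 8 for the androgen response in NES and 2 in NLSKD cells. Under R1881 they were 4 for NLS and 6 for NLSKD over EV and 4 for NLS over NES. Under vehicle the block gave 7 for NLS over EV. In other comparisons not all 3 correlations were over 0.1, though some were well above it. There the block gave 11 calls for NES over EV under R1881 (correlations 0.423, 0.352 and 0.0366). It gave 10 for WT over EV under vehicle (0.15, 0.164 and 0.0372) and 5 for the androgen response in NLS cells (0.32, 0.64 and -0.0217). Over all pairs of groups the median correlation of same-numbered deviations was 0.183, against -0.0996 for different numbers.

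Leaving out 1 library at a time gave 4 to 7 calls for the androgen response in EV, 0 to 3 in WT, 2 to 5 in NES, 0 to 1 in NLS and 0 in NLSKD cells. Against EV under R1881 it gave 4 to 5 in WT, 2 to 5 in NES, 1 to 3 in NLS and 1 to 2 in NLSKD cells, and under vehicle 4 to 6, 2 to 6, 1 to 4 and 1 to 3 in that order. NLS over NES had 0 to 3 under R1881 and 0 under vehicle, and NLSKD over NLS and the 4 interactions had 0 throughout. Of the 53 calls, 17 held in each fit run. Leaving out a library ended a call 125 times and kept it 193 times. Depth limits the weakest members, such as IFITM1 with 99 counts over all libraries.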
